A study of Sus scrofa with 24 samples.

Results

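The mitochondrial ribosome is built from proteins that are encoded in the nucleus, and the genes named MRPL or MRPS followed by a number were described here across fetal pig livers. Members were chosen by symbol alone, from the annotation of the array, and each gene was represented by its probe set with the highest mean over the arrays. This gave 59 genes, 35 with an MRPL and 24 with an MRPS symbol, among 13755 genes with a symbol. They were covered by 78 probe sets. RefSeq lists 76 protein-coding pig genes of this kind, and 17 of these had no named probe set, by their current or an older symbol in RefSeq, and were not analysed here. MRPL58 is on the array under its older symbol ICT1 and so was not a member. The livers came from 24 fetuses at 63 days post conception (dpc), F2 offspring of German Landrace crossed with Pietrain, and each liver was measured on 1 Affymetrix Snowball array. The study set growth-restricted (IUGR) fetuses against littermates appropriate for gestational age (AGA), to find out which liver pathways differ. In the sources used here an array carries a fetus number only, so growth groups, sexes and dams were not compared. Values are given as lowest, median and highest over the 24 livers. The fetuses were chosen as sibling pairs, so the livers are not independent of each other.

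Mitochondrial ribosomes translate the few messenger RNAs of the mitochondrial genome, all of which encode subunits of the respiratory chain and the ATP synthase. The remaining subunits of these complexes are made on cytosolic ribosomes and imported, and so are all proteins of the mitochondrial ribosome itself. The small subunit reads the messenger RNA, and the large subunit joins the amino acids and leads the growing chain to the inner membrane. Many of the proteins descend from bacterial ribosomal proteins, while others were added in mitochondria. Liver is rich in mitochondria, and at this age it also makes blood cells.

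All levels are log2 RMA values, in which a difference of 1 is a 2-fold difference. To pass the filter, a gene needed a level of 6 or more on 18 or more of the 24 arrays. Of the 59 mitochondrial ribosomal protein genes, 21 passed and 38 did not, and over all genes with a symbol 24.6% passed. By the place of the protein in the structure, 12 of 37 genes of the large subunit and 9 of 22 of the small subunit passed. Among genes with a bacterial homologue 15 of 37 passed, and among those added in mitochondria 6 of 22. MRPS5 lay just inside the filter, with 18 arrays at the limit, and MRPL43 and MRPL19 lay just outside, with 16 and 15. The 95th percentile of the 69 background control probe sets lay between 6.52 and 6.89 on the different arrays. The median level was above that range for 9 of the 21 genes, and 2 of them, MRPL37 and MRPS9, were above it in each of the 24 livers. The other levels lay partly within or below that range. Since probe sets differ in how they respond, levels were not ranked between genes.

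**Figure D1:**
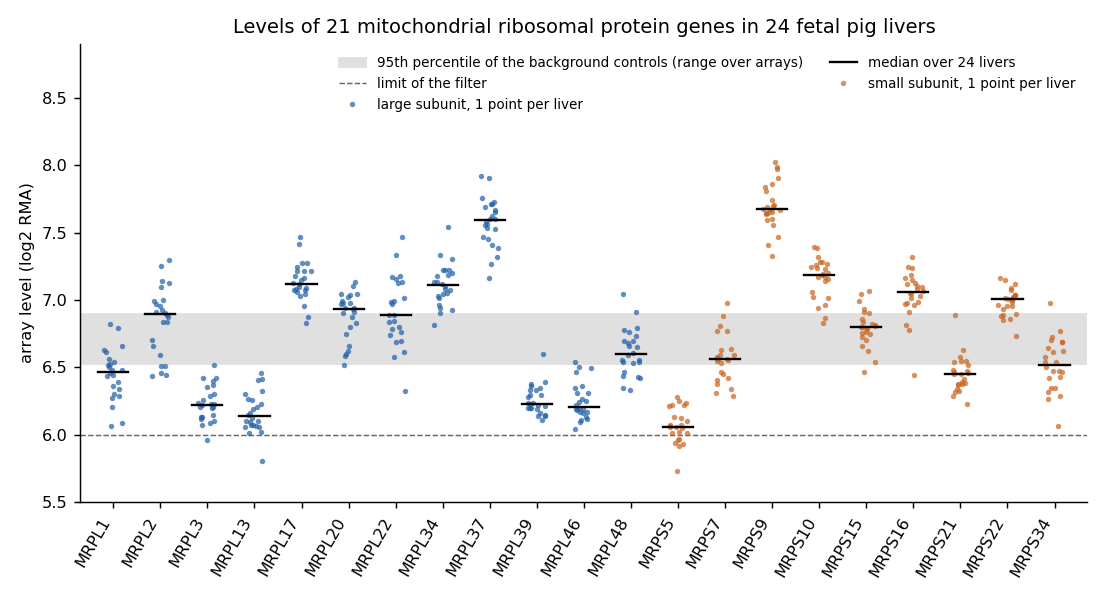
Array levels (log2 RMA, vertical axis) of the 21 mitochondrial ribosomal protein genes that passed the filter, with 1 point per liver and a bar at the median over 24 livers. The grey band is the range over arrays of the 95th percentile of the background controls, 6.52 to 6.89, and only MRPL37 and MRPS9 lie above it in each liver.

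In the large subunit, MRPL2 and MRPL3 encode proteins whose bacterial counterparts surround the site where peptide bonds form. The level of MRPL2 had a median of 6.90 and lay between 6.43 and 7.30. That of MRPL3 had a median of 6.22 and lay between 5.96 and 6.52. MRPL1, the protein of the mobile stalk beside which spent transfer RNAs leave, ranged from 6.06 to 6.82 with a median of 6.47. MRPL17 and MRPL22 encode proteins near the tunnel through which the growing chain leaves. MRPL17 ranged from 6.83 in fetus 355 to 7.47 in fetus 303, with a median of 7.12. MRPL22 ranged from 6.33 in fetus 355 to 7.46 in fetus 313, with a median of 6.89. The next values inward were 6.58 and 7.34, so the lowest liver of MRPL22 stood somewhat apart. MRPL34, a small protein embedded in the ribosomal RNA, ranged from 6.81 in fetus 312 to 7.54 in fetus 281, with a median of 7.11. MRPL13 and MRPL20, whose bacterial homologues bind the ribosomal RNA early in assembly, had medians of 6.13 and 6.94.

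The remaining large subunit genes that passed encode proteins without a bacterial counterpart. MRPL37 ranged from 7.17 in fetus 283 to 7.92 in fetus 281, with a median of 7.59. MRPL46 and MRPL48 belong to the central protuberance, where a mitochondrial transfer RNA takes the place of a small ribosomal RNA of bacteria. Their medians were 6.21 and 6.60, and the highest MRPL48 level, 7.05, was again in fetus 281. MRPL39 stayed within 6.11 to 6.60 around a median of 6.23.

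In the small subunit, MRPS9 and MRPS7 encode proteins whose bacterial counterparts contact transfer RNA. MRPS9 ranged from 7.33 in fetus 320 to 8.02 in fetus 303, with a median of 7.67. MRPS7 ranged from 6.29 in fetus 283 to 6.98 in fetus 303, with a median of 6.56. MRPS7 is among the genes of this group whose mutations cause combined deficiencies of the respiratory chain in humans, as are MRPS16, MRPS22, MRPS34 and MRPL3. MRPS16 ranged from 6.44 to 7.32 with a median of 7.06. Its lowest value was in fetus 355, and the next lowest liver had 6.78. MRPS22, which has no bacterial homologue, ranged from 6.73 to 7.16 with a median of 7.01, the narrowest span of the 21 genes at 1.35-fold. MRPS34, likewise added in mitochondria, ranged from 6.06 in fetus 363 to 6.98 in fetus 281, with a median of 6.52. Of the other genes with bacterial homologues, MRPS10 had a median of 7.19, MRPS15 of 6.80, MRPS21 of 6.45 and MRPS5 of 6.06. MRPS21 was highest in fetus 303, at 6.89, with 6.63 as the next highest level.

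Among the 38 genes that did not pass were MRPL44, a member of the RNase III family, with a median of 1.43, and MRPL19, with a median of 6.12. MRPL12, which forms the stalk that recruits translation factors and in humans also binds the mitochondrial RNA polymerase, ranged from 5.40 to 5.99 with a median of 5.65. Its partner in the stalk, MRPL10, had a median of 5.88. MRPS12, part of the decoding centre, had a median of 5.32. MRPL45, which anchors the ribosome at the inner membrane, had the widest span of all 59 genes. It ranged from 4.58 in fetus 338 to 6.76 in fetus 303, a 4.52-fold difference around a median of 6.05. Without its highest and lowest livers the span of MRPL45 was 2.44-fold. The other large subunit genes below the filter were MRPL9, MRPL14, MRPL18, MRPL23, MRPL24, MRPL27, MRPL28, MRPL32, MRPL35, MRPL36, MRPL38, MRPL41, MRPL43, MRPL47, MRPL50, MRPL51, MRPL52, MRPL53, MRPS18A and MRPS30. The last 2 carry a small subunit symbol but lie in the large subunit of the structure. The other small subunit genes below the filter were MRPS2, MRPS6, MRPS11, MRPS14, MRPS18B, MRPS18C, MRPS24, MRPS25, MRPS26, MRPS28, MRPS31 and MRPS35. A low array level does not show that a gene was not expressed.

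Most of the mitochondrial ribosomal protein genes that passed varied by less than 2-fold from liver to liver. Between the highest and the lowest liver, 1 of the 21 genes differed by more than 2-fold, while 18.8% of all genes that passed did so. The exception was MRPL22, with a 2.20-fold span. The median span was 1.58-fold over the 21 genes, near the 1.64-fold over all genes that passed. It was narrower in 2 related groups, 1.43-fold over 34 nuclear genes of the respiratory chain and ATP synthase and 1.45-fold over 41 cytosolic ribosomal protein genes. Small spans were thus not particular to the mitochondrial ribosomal protein genes. The median level was above the range of the background controls for 9 of the 21 genes, and the part of low levels in these spans was not tested. After MRPL22 the widest spans were those of MRPS34 with 1.89-fold, MRPS16 with 1.84-fold and MRPL2 with 1.82-fold. Next to MRPS22, the narrowest were those of MRPL39 with 1.40-fold and MRPL46 with 1.41-fold. Of the 38 genes below the filter, 6 spanned more than 2-fold, as did 42.8% of all genes below the filter. The median span of the 38 genes was 1.72-fold.

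The 21 genes varied together only loosely. Over the 210 pairs of genes, the median Pearson r across the 24 livers was 0.188, and 164 pairs, or 78.1%, were positive. Over all pairs of genes that passed, the median r was 0.0437, and 55.9% were positive. An r above 0.5 was reached by 7.62% of the member pairs, 16 in number, and by 5.23% of all pairs. All genes of a liver share 1 array, and the sibling livers are not independent, so these values describe the livers and carry no p-value. The highest r, 0.669, was that between MRPL17 of the large and MRPS21 of the small subunit. MRPL37 with MRPS7 followed at 0.644, MRPL17 with MRPS16 at 0.643, MRPL34 with MRPS15 at 0.621 and MRPL2 with MRPS21 at 0.586. The lowest values were -0.452 for MRPL1 with MRPL37, -0.367 for MRPL1 with MRPL46, -0.314 for MRPS22 with MRPS5, -0.274 for MRPS22 with MRPS34 and -0.255 for MRPL1 with MRPL48. The median r was 0.0960 within the large subunit, 0.288 within the small subunit and 0.212 across the subunits. With a filter limit of 7, which 5 members passed, the order was the other way, with 0.507 over 3 pairs of the large subunit and 0.0265 for the 1 pair of the small subunit. Pairs of genes with bacterial homologues had a median r of 0.201, and pairs of genes added in mitochondria had 0.0762. None of these differences was tested.

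Each gene was then set against the mean of the other 20. This r was positive for all 21 genes, with a median of 0.337, and it was above 0.5 for 9 of them. By rho, MRPL1 was negative, at -0.034. The other genes that passed had a median r of 0.186 with the mean of the 21, and 9.65% of them were above 0.5. The share of these other genes with a positive r was not computed. The 9 genes were MRPL17 with an r of 0.732, MRPL34 with 0.725, MRPS9 with 0.600, MRPS21 with 0.595, MRPL37 with 0.549, MRPS15 with 0.540, MRPS16 with 0.536, MRPS7 with 0.530 and MRPS34 with 0.519. At the other end, MRPL1 had an r of 0.069, MRPL39 of 0.181, MRPL46 of 0.207, MRPS10 of 0.214 and MRPL13 of 0.222. The number of genes above 0.5 was smaller in some other settings, though not in all. It was 3 with Spearman's rho, and 3 of 20 without fetuses 281 and 303, with the filter applied anew. It was 4 when the mean over all genes of a liver was first subtracted. After that subtraction 3.84% of the other genes were above 0.5. For rho and for the omission of fetuses 281 and 303 the share of the other genes was not computed.

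**Figure D2:**
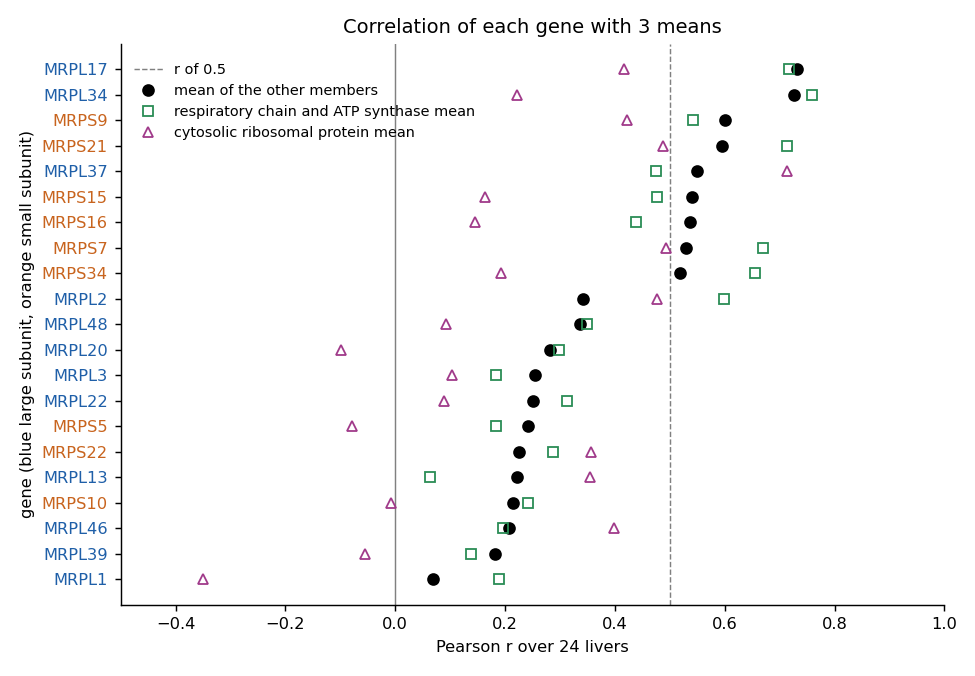
Pearson r over 24 livers (horizontal axis) of each of the 21 mitochondrial ribosomal protein genes with the mean of the other members, with the mean of the respiratory chain and ATP synthase genes and with the mean of the cytosolic ribosomal protein genes. With the other members 9 genes lie above the dashed line at 0.5, with the respiratory chain 7 and with the cytosolic ribosome 1, MRPL37.

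To see which livers were high or low, the difference of each of the 21 genes from its own median was averaged within each liver. This member mean ran from -0.17 in fetus 355 to 0.17 in fetus 281 on the log2 scale, which is a 1.27-fold range. Fetus 303 was close to fetus 281 with 0.16, and the next highest liver, of fetus 274, had 0.06. At the low end fetuses 307 and 283 had -0.12. Fetuses 281 and 303 were singled out after their values were seen. In fetus 281, 16 of the 21 genes were above their own median, and so were 62% of all genes that passed. In fetus 303 it was 14 of the 21 genes against 65% of all genes. In fetus 355, 18 of the 21 genes were below their own median, as were 70.1% of all genes. These 3 livers thus stood on the same side in most genes. The mean difference over all genes that passed had a range of 0.145 on the log2 scale, and its r with the member mean was 0.712. With that mean subtracted, the range of the member mean was 0.214, and fetus 281, with 0.12, remained the highest liver. The low end was then shared by fetus 363 with -0.0924, fetus 355 with -0.0900 and fetus 324 with -0.0889. Among the single genes, MRPL34, MRPL37, MRPL48 and MRPS34 were highest in fetus 281. MRPL2, MRPL17, MRPS7, MRPS9 and MRPS21 were highest in fetus 303.

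**Figure D3:**
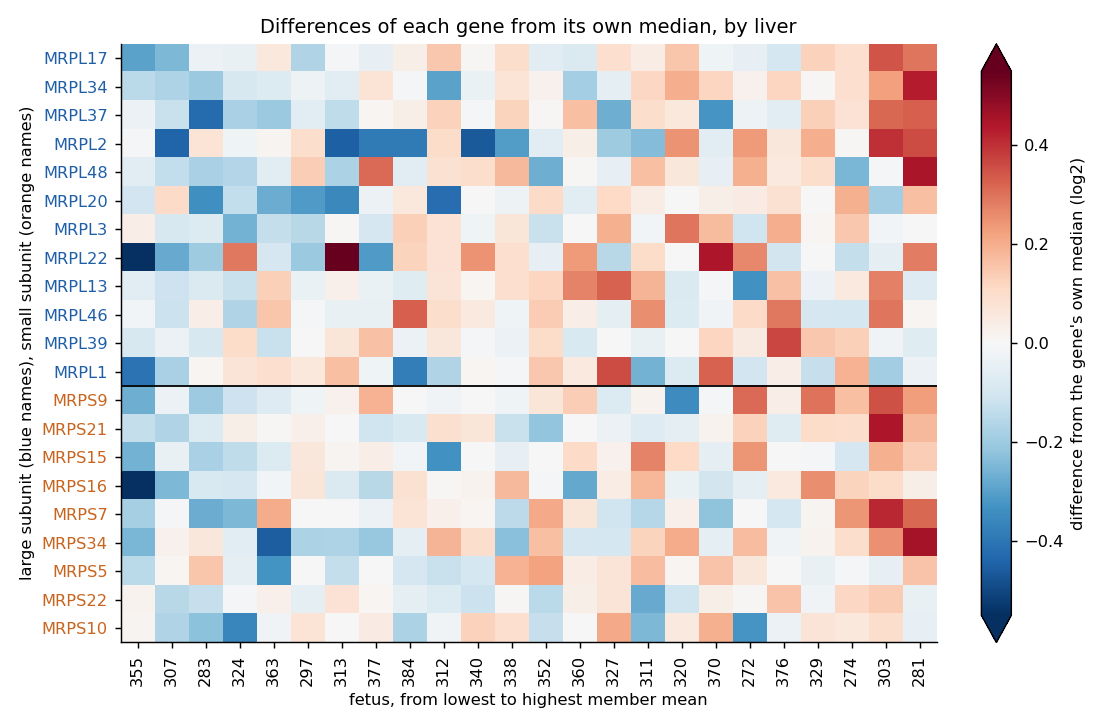
Difference of each of the 21 genes from its own median (colour, log2) in each of the 24 livers, with fetuses ordered along the horizontal axis from the lowest to the highest member mean. Colours at the ends of the scale stand for differences of that size or more, and most of the red cells on the right lie in fetuses 303 and 281.

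The genes of both subunits and those below the filter gave a like order of livers. The mean of the 12 large subunit genes and that of the 9 small subunit genes had an r of 0.834 over the livers, and of 0.715 after subtraction of the mean over all genes. The 38 genes below the filter were not used for the member mean. Their own mean had an r of 0.790 and a rho of 0.717 with it, and an r of 0.588 after the subtraction and of 0.649 without fetuses 281 and 303. The median r of the 38 genes with the member mean was 0.292, and 4 of them were above 0.5, namely MRPL43, MRPS24, MRPL18 and MRPS28, against 1.76% of the other genes below the filter. Averaging over many genes raises the r between 2 means even when single genes follow each other weakly, so these values should not be set against the r between genes.

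The nuclear genes for the respiratory chain and the ATP synthase encode the proteins that are joined in the inner membrane with the products of the mitochondrial ribosome. The list was drawn from the symbols on the array, so it need not hold every subunit, and 34 of its 54 genes passed. Their mean followed the member mean most closely of the lists examined, with an r of 0.879 and a rho of 0.782. With the mean over all genes subtracted from both, r was 0.775, and without fetuses 281 and 303 it was 0.785. Both together gave 0.650. When each liver was left out in turn, r stayed between 0.846 and 0.912. The 38 genes below the filter gave 0.765, and 0.583 after the subtraction. The lists with a gene that passed held 1 to 41 such genes. As averaging over many genes raises r, the r of a short list should not be ranked against that of a long list. Among the 21 genes, 7 had an r above 0.5 with the respiratory chain mean, against 7.89% of the genes outside that list. These were MRPL34 with 0.759, MRPL17 with 0.717, MRPS21 with 0.713, MRPS7 with 0.670, MRPS34 with 0.655, MRPL2 with 0.598 and MRPS9 with 0.543. After subtraction of the mean over all genes, 4 of the 21 members were above 0.5, against 2.87% of the genes outside the list.

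Of the 34 respiratory chain genes themselves, 13 had an r above 0.5 with the member mean, against 9.65% of all genes that passed other than the members. The highest were the genes for the alpha and gamma subunits of the ATP synthase, ATP5A1 with 0.715 and ATP5C1 with 0.698. The lowest were NDUFA3, for a subunit of complex I, with 0.082, and COX7A1, the muscle form of a subunit of cytochrome oxidase, with 0.025. After the subtraction 4 of the 34 genes were above 0.5, against 3.84% of all genes that passed other than the members. The r between a single member and a single respiratory chain gene had a median of 0.193, near the 0.188 between members. The part that the variation common to all genes has in these values was not tested.

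**Figure D4:**
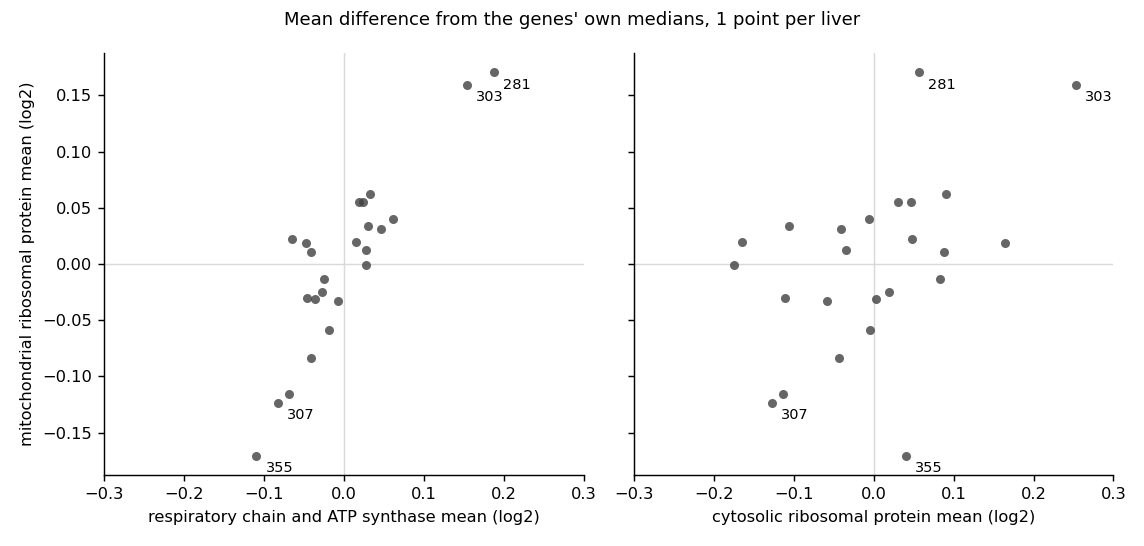
Member mean of the 21 mitochondrial ribosomal protein genes (vertical axis, log2) against the mean of 34 respiratory chain and ATP synthase genes (left) and of 41 cytosolic ribosomal protein genes (right), with 1 point per liver. Fetuses 281 and 303 lie apart at the top of both panels, and r is 0.879 on the left and 0.461 on the right.

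The mean of the genes for the cytosolic ribosome, which makes all these proteins, was followed less closely. Of 62 cytosolic ribosomal protein genes, also drawn from the symbols on the array, 41 passed. The r of their mean with the member mean was 0.461, with a rho of 0.457. It was 0.353 after subtraction of the mean over all genes and 0.255 without fetuses 281 and 303. Leaving out each liver in turn gave 0.304, without fetus 303, to 0.569, without fetus 355. In fetus 355, the lowest liver in the member mean as deposited, the cytosolic mean was 0.04 on the log2 scale, and in fetus 303 it was 0.25. Of the 41 cytosolic genes, 4 or 9.76% had an r above 0.5 with the member mean, near the 9.65% of all genes that passed other than the members. The cytosolic genes with the highest r to the member mean were RPS10 with 0.625 and RPL14 with 0.588, and those with the lowest were RPL22L1 with -0.012 and RPS2 with -0.045. MRPL37 was the 1 member of 21 with an r above 0.5 to the cytosolic mean, at 0.714, while 9.47% of the genes outside that list were above 0.5. MRPL1 had an r of -0.350. The r between a single member and a single cytosolic gene had a median of 0.163, near the 0.193 with a single respiratory chain gene. With the mean over all genes, the respiratory chain mean had an r of 0.677 and the cytosolic mean of 0.254. Whether the r with the respiratory chain and that with the cytosolic ribosome differ was not tested.

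Few other genes of mitochondrial translation passed the filter, so this pathway could be followed only in part. Of 8 named translation factors 2 passed. The elongation factor gene TUFM had an r of 0.622 and a rho of 0.443 with the member mean, and GFM1, which moves the ribosome along the messenger RNA, had an r of 0.098. The mean of both had an r of 0.4995. Without fetuses 281 and 303, with the filter and medians computed anew, the r of the translation factors was 0.143. Of 11 named genes for assembly and RNA modification 2 passed, the protease subunit AFG3L2 with an r of 0.269 and the helicase DDX28 with 0.160. Of 11 named mitochondrial aminoacyl-tRNA synthetases only IARS2, for isoleucine, passed, with 0.222. Of 5 named proteins of the mitochondrial ribosome without an MRP symbol 2 passed, PTCD3 with 0.199 and AURKAIP1 with 0.036. Among the genes for mitochondrial transcription and RNA stability 3 of 6 passed. SLIRP, which stabilizes mitochondrial messenger RNAs together with LRPPRC, had an r of 0.429, and LRPPRC itself 0.021. TFAM, which packages the mitochondrial genome and helps to start its transcription, had an r of -0.357. Of 8 named regulators, NRF1 and MYC passed, with 0.124 and 0.238. Genes of the mitochondrial genome had no named probe set and were not analysed here.

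**Figure D5:**
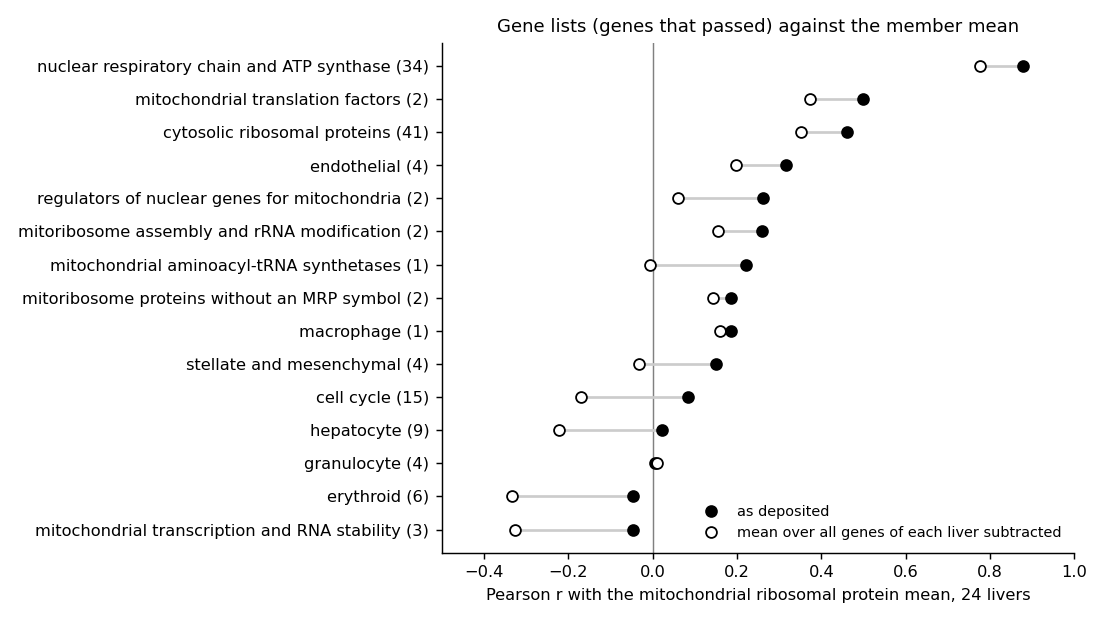
Pearson r over 24 livers (horizontal axis) between the member mean and the mean of each gene list, with the number of genes that passed in parentheses. Filled points are values as deposited and open points are values after subtraction of the mean over all genes of each liver, which for the respiratory chain list are 0.879 and 0.775.

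Liver tissue holds several cell types, and in a bulk sample fewer cells of a type and less RNA per cell cannot be told apart. Of 10 hepatocyte genes 9 passed, with medians from 7.25 for HNF4A to 13.43 for SERPINA1, while AHSG had a median of 1.13. Among 7 named genes of erythroid cells 6 passed. With the member mean, the hepatocyte mean had an r of 0.021, the erythroid mean of -0.046, the granulocyte mean of 0.006 and the mean of 15 cell cycle genes of 0.083. The mean of 4 stellate and mesenchymal genes had 0.151, that of 4 endothelial genes 0.317 and the macrophage gene C1QA 0.186. After subtraction of the mean over all genes the hepatocyte and cell cycle values were -0.221 and -0.170, and the erythroid value was -0.333. The granulocyte mean had a range of 3.41 on the log2 scale over the livers, against 0.341 for the member mean. It was 2.86 in fetus 311 and 2.84 in fetus 312, and between -0.55 and 0.90 in the other 22 livers. No biliary gene of 3 named passed. The part of cell composition in the member mean was not tested.

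Technical measures were set beside the member mean as well. The r of an array with the median array was 0.967 to 0.992, and the 2 lowest arrays, of fetuses 311 and 312, had member means near 0. This array r had an r of -0.332 with the member mean, and it was 0.978 in fetus 281, 0.983 in fetus 303 and 0.988 in fetus 355. The mean of the background controls had an r of -0.381 and a rho of -0.186 with the member mean, and that of the 14 hybridization controls an r of 0.219 and a rho of 0.457. With the first and second principal components the r was 0.312 and 0.234. Their part in the result was not tested.

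A further probe set of the same gene gave a check on single genes. The 15 members with several probe sets gave 24 pairs, and in 1 pair, of MRPS10, both probe sets passed the filter. Their r was 0.517 and their rho 0.553, with a p of 0.0098 and 0.0059 in two-sided permutation tests, and 0.0785 and 0.0473 after Benjamini-Hochberg adjustment over the 24 pairs. The highest r was that of 2 MRPL37 probe sets, 0.637 with an adjusted permutation p of 0.0178, and this was the 1 pair of the 24 with an adjusted p for r under 0.05. Another MRPL37 probe set, with a median of 5.87, had an r of -0.207 and -0.112 with these 2. The lowest r of the 24 pairs was -0.402, for MRPL38, with an adjusted permutation p of 0.239. By rho there were 3 pairs, of MRPL37, MRPS10 and MRPS15. The 2 MRPL45 probe sets had an r of 0.513 with an adjusted permutation p of 0.0785. Where the lower probe set had a median of at least 4, the median r was 0.227 over 11 pairs, and below 4 it was 0.0687 over 13 pairs. The members outside these 15 have no further named probe set. As siblings are counted as independent in these tests, the p-values are approximate.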

How the data were processed

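The deposited values are log2 levels, which the authors obtained from the scanned arrays with the RMA algorithm in the Expression Console software, after quality control with GCOS 1.1.1 per the labels. The table holds 47845 probe sets for 24 arrays and includes probe sets below the authors' filter. RMA makes the distributions of the arrays alike, so that a change in all genes at once cannot be seen. The array annotation names 26426 probe sets with 1 symbol each, and the others are unnamed here. For the genome build behind the probes, nothing is stated in the sources at hand. An array has no read depth, and the number of arrays limits the precision.

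All samples were left without a group, since the labels give none. Levels were described over the livers, as lowest, median and highest. Correlation was measured by Pearson's r, with Spearman's rho beside it, and the pairs of probe sets were tested with 100000 permutations. Named are all members, the 5 highest and 5 lowest pairs, and, of the comparison lists other than cell types, the 2 genes with the highest and the 2 with the lowest r to the member mean. The members and lists were chosen with earlier results of these data known. Subunits were assigned from the known structure. The correlation code was tested on simulated data. Alternatives were other limits, other choices of probe set, aligned array medians, rho and arrays left out. Subtraction of the mean over all genes, omission of fetuses 281 and 303 and use of the members below the filter were added after seeing the data. The work used Python 3.11.15, numpy 2.4.6, pandas 2.3.3, scipy 1.17.1 and matplotlib 3.10.9.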

Additional observations from a re-analysis of the deposited data

How the results depend on the processing

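A limit of 5 let 47 members pass and a limit of 7 let 5 pass, against 21 at the limit of 6. A value of the main results is given here where it moved by more than 1 jackknife standard error over the livers, or, for counts, by more than 1.5 times. With the limit of 5, 5 members spanned over 2-fold, the median span was 1.66-fold, the median r was 0.113 within the small subunit and 0.138 across subunits, and the range of the member mean was 0.293. With the limit of 7, no member (0) spanned over 2-fold, the median r was 0.379 over all pairs, 0.507 within the large subunit, 0.0265 for the 1 pair within the small subunit and 0.310 across, the range was 0.484, and 3 members had an r above 0.5 to the others. With the mean of all probe sets of a gene, 0 members spanned over 2-fold. With aligned array medians the median r was 0.102 over all pairs, 0.153 within the small subunit and 0.118 across, the range was 0.194, the r with the respiratory chain was 0.759, and 3 members had an r above 0.5. With the mean over all genes subtracted these values were 0.104, 0.155, 0.113, 0.214, 0.775 and 4. With rho, 3 members were above 0.5 and the respiratory chain value was 0.782. Without fetuses 281 and 303, with the filter and medians computed anew, the median span was 1.499-fold, the median r within the small subunit 0.134, the range 0.238 and the respiratory chain value 0.794, with 3 members above 0.5. The text above gives 0.785 with the medians of all 24 livers kept. The members below the filter gave 0.765 with the respiratory chain. The r with the aminoacyl-tRNA synthetase IARS2 changed sign, to -0.036 with aligned medians and -0.00604 with the mean over all genes subtracted. Of the counts in these settings, only that of 4 members above 0.5 has a share over the other genes, 3.84%. For the other counts no such share was computed. The causes were not tested.

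The remaining 88 values of the main results moved less. Of the values with the smaller lists, 21 moved by more than 1 standard error, among them that of the translation factors, to 0.107 when all 24 arrays had to reach the limit. The search for promoter motifs was not run. No paired analysis was possible because the labels give no groups or replicate numbers. Levels near 6 overlap with those of the background controls, which limits what the lowest genes can show.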
